A study of Mus musculus with 4 samples.

Results

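The genes described here are 31 mouse genes of fatty acid uptake and oxidation, followed in the left ventricle of mice that carried or lacked a voltage indicator transgene. They were chosen by symbol from the deposited raw count table, each matched 1 row, and they are 31 of the 38355 genes listed there. All 31 passed the filter on low counts, which kept 14189 genes for testing. The series set out to ask whether the transgene VSFP2.3 harms the heart. This engineered indicator, a voltage-sensitive fluorescent protein, changes its light output with membrane potential. Total RNA of the left ventricular free wall was sequenced from 4 untreated mice that shared the same parents, 1 library per mouse. The wild-type mice were a 35-week male (WT 1) and a 19-week female (WT 2), and the VSFP2.3 transgenic mice were a 35-week male (TG 1) and a 19-week female (TG 2). Sex and age therefore change together and cannot be told apart. The sources used here gave neither the strain background nor the promoter that drives the transgene, and the transgene's own transcript was not analysed here.

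Heart muscle draws most of its energy from long-chain fatty acids. Fatty acids are freed from circulating triglyceride or from lipid droplets, bound in the cytosol, joined to coenzyme A, and carried into mitochondria on carnitine, a transfer that malonyl-CoA inhibits. Inside the mitochondrion each turn of the beta-oxidation spiral shortens the acyl chain and passes electrons to the electron transfer flavoprotein, and many genes of the route are known targets of the fatty acid-sensing receptors of the PPAR family.

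Gene totals ran from 14158440 to 16762713 counts per library, and the 31 genes together took 1.69% (WT 2) to 1.99% (TG 2) of them. Levels are given as CPM, the count relative to a common total of reads per library, on library sizes scaled by trimmed means, and levels between genes as CPM per kilobase of exonic length. The summed CPM of 12 cardiomyocyte markers lay between 85710 and 108700, so the defining genes of the labelled tissue were present, and that of 9 adipocyte markers between 345.8 and 465.4, of which Fabp4, also made by capillary endothelium, gave 317.8 to 421.4. The adipocyte gene Adipoq stood at 0.854 to 1.82 CPM, and brown fat's Ucp1 was at 0 counts in all 4 libraries. WT 2 stood apart in an atrial myosin light chain, Myl4, at 75.6 CPM there against 0.711 to 1.16 CPM elsewhere. Myl7 and Sln, of the same 4-gene atrial list, went the same way. They stood at 71.1 and 19.1 CPM in WT 2 against at most 0.304 and 0.0664 CPM elsewhere. The remaining gene of that list, Nppa, was lowest in WT 2, at 1057 CPM, and ran from 1556 to 4228 CPM elsewhere. Summed erythroid markers were at 721.9 CPM in WT 1 and between 143.4 and 236.2 CPM in the rest. Summed leukocyte markers were at 1177 CPM in WT 1 and 974.2 in TG 2, against 239.1 in WT 2 and 238.9 in TG 1. Their part in the results below was not tested. In bulk tissue, fewer cells of a type and less RNA per cell cannot be told apart. With 2 mice per group, p-values rest on the spread among these 4 animals. Each comparison below was the only term of its test, so other labelled differences count as spread within its groups. For TG against WT that spread includes the difference of sex and age.

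The RNA levels of the pathway were close to each other in all 4 hearts. The highest library exceeded the lowest by less than 1.5-fold for all but 7 of the 31 genes, namely Lpl, Angptl4, Pnpla2, Plin5, Mlycd, Etfa and Acot2. Etfdh spanned the narrowest range, 1.10-fold, and Angptl4 the widest, 15.8-fold. On the log2 scale the range over the libraries had a median of 0.31 among the 31 genes and of 0.46 among all genes tested. It was below 1 for 30 of the 31, against 84.2% of all genes. The members were not matched with other genes by count level, on which such ranges depend. These values therefore do not show that the pathway varied less than other genes of its level. WT 1 was the lowest library for 17 members and WT 2 the highest for 14. The same counts were not made over all genes tested, so they may hold for the libraries at large. They also rest on the scaling, whose factors were 1.06 in WT 1 and TG 2, 0.93 in WT 2 and 0.95 in TG 1. As a share of all counts, the members were lowest in WT 2, at 1.69%, against 1.86% in WT 1.

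No member passed the test between TG and WT, for which edgeR's quasi-likelihood p-values were adjusted over all genes by the Benjamini-Hochberg method, and neither did any other gene (0% of 14189). At an unadjusted p below 0.05 it picked 99 genes (0.698%), 1 of them a member, Acot2. DESeq2 and limma-voom called no member either, with 2 and 1 at an unadjusted p below 0.05. With TMM scaling 15 members were higher in TG and 16 lower, against 47.5% of all genes higher, whereas 8 were higher with library sizes set to the summed cardiomyocyte markers, a scaling that put the median of all genes at -0.12. Without WT 1 the members higher in TG were 10, and without WT 2 they were 23. The members' log2 fold changes ran from -0.20 (Acot1) to 0.60 (Acot2), with a median of -0.02, and 29 of the 31 were smaller than 0.25 in either direction. For 27 members the 95% interval of the log2 fold change stayed within -1 to 1, that is within a 2-fold change either way. It did so for 67.1% of all genes, which were not matched by level. The intervals of Lpl, Angptl4, Acot1 and Acot2 reached further. Both TG libraries lay above both WT libraries for Lpl, Acsl1, Slc25a20 and Acot2 (4 of 31, background 10.3%) and below them for Hadhb (1 of 31, background 10.7%).

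**Figure D1:**
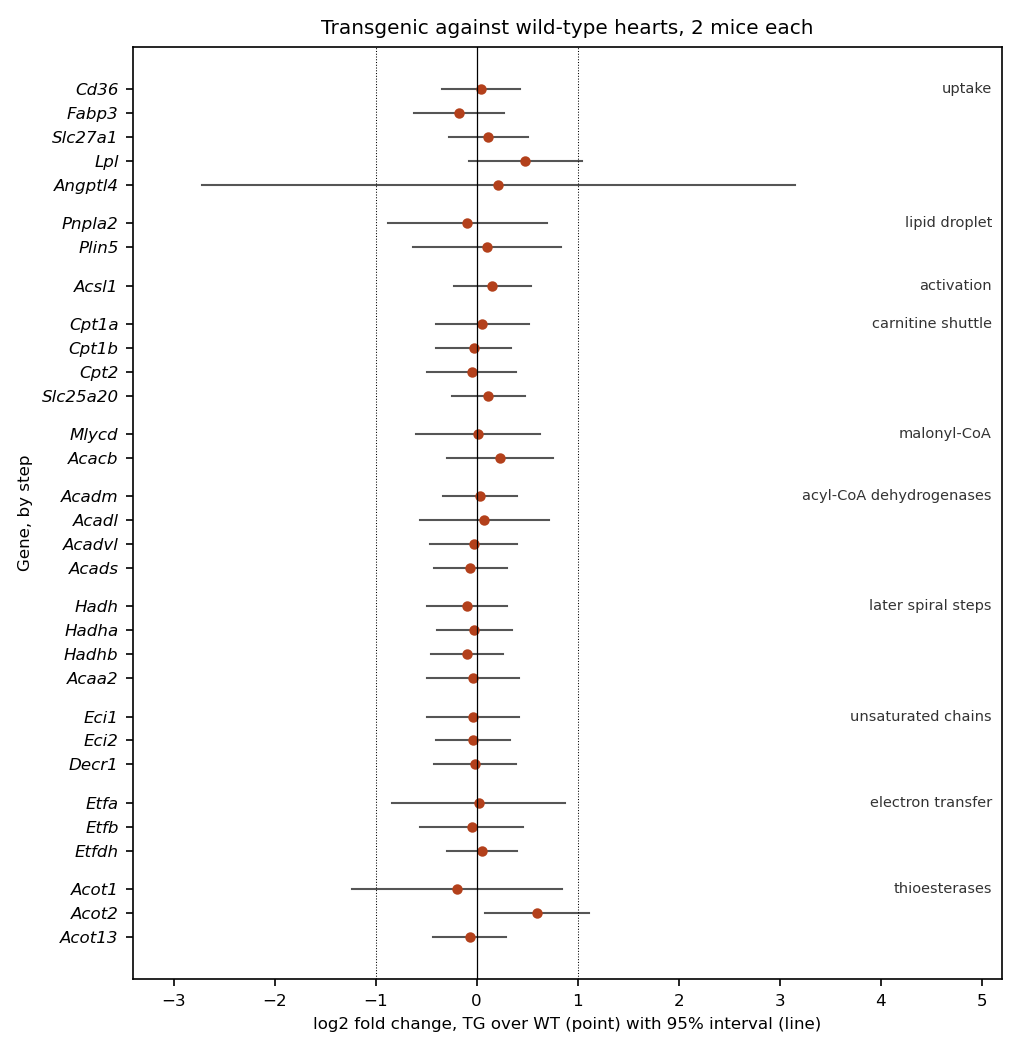
Log2 fold change of TG over WT for the 31 genes by step (points, edgeR, 2 mice per genotype) with 95% intervals (lines); dotted lines mark -1 and 1. The points sit between -0.20 and 0.60, and all intervals but that of Acot2 cross 0.

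No member passed the test between the 35-week males and the 19-week females, where 4 genes did (0.0282%), and none did without WT 1, without WT 2 or without TG 1. At an unadjusted p below 0.05 there were 2 members, Plin5 and Angptl4, against 3.62% of all genes, and DESeq2 and limma-voom called none and had 2 each at that level. The members were lower in the males for 23 of 31 and higher for 8, with 3 higher under the cardiomyocyte marker scaling, and 51.9% of all genes were higher. Their median log2 difference was -0.08, beside 0.01 for all genes. Both males lay below both females for 10 members (background 15.9%): Angptl4, Plin5, Cpt1a, Cpt2, Mlycd, Acads, Acaa2, Decr1, Etfdh and Acot1. Both lay above for 1, Acadm (background 15.5%).

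A further test asked whether TG and WT differed by another ratio in the males than in the females. It equals setting WT 2 with TG 1 against WT 1 with TG 2, and the log2 ratio of the former libraries to the latter is called the crossed ratio here. The test was chosen with earlier results of these data known. With 1 mouse of each genotype per pair, it cannot separate such a difference from variation between animals. By edgeR it called 386 genes (2.72%; 40 without WT 1 and 109 without TG 2) but no member, and 4 members were at an unadjusted p below 0.05, against 16.2% of all genes. DESeq2 called 2 members, Etfa (adjusted p = 0.0032) and Acadl (adjusted p = 0.031), and limma-voom called none, with 6 at an unadjusted p below 0.05. The crossed ratio was above 0 for 22 members and below 0 for 9, against 50.9% of all genes above, but above 0 for only 6 under the cardiomyocyte marker scaling, which put the median of all genes at -0.22. Its 95% interval stayed within -1 to 1 for 29 members (background 72.3%, not matched by level). WT 2 and TG 1 both lay above both others for 10 members (background 22.9%) and below them for 5 (background 24.6%). Of the variance over the libraries, this split held the largest part for 15 members, sex and age for 11 and genotype for 5, against 47.5%, 31.5% and 21% of all genes. The 10 leukocyte markers followed the same split in the opposite direction, with 7 of them called lower in WT 2 and TG 1. The cardiomyocyte markers went in the members' direction, with a crossed ratio above 0 for 9 of 12, a median of 0.09 and 0 called. Their sum was 85713 CPM in WT 1, 95985 in WT 2, 108710 in TG 1 and 88256 in TG 2. The part of either marker list in the members' values was not tested.

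**Figure D2:**
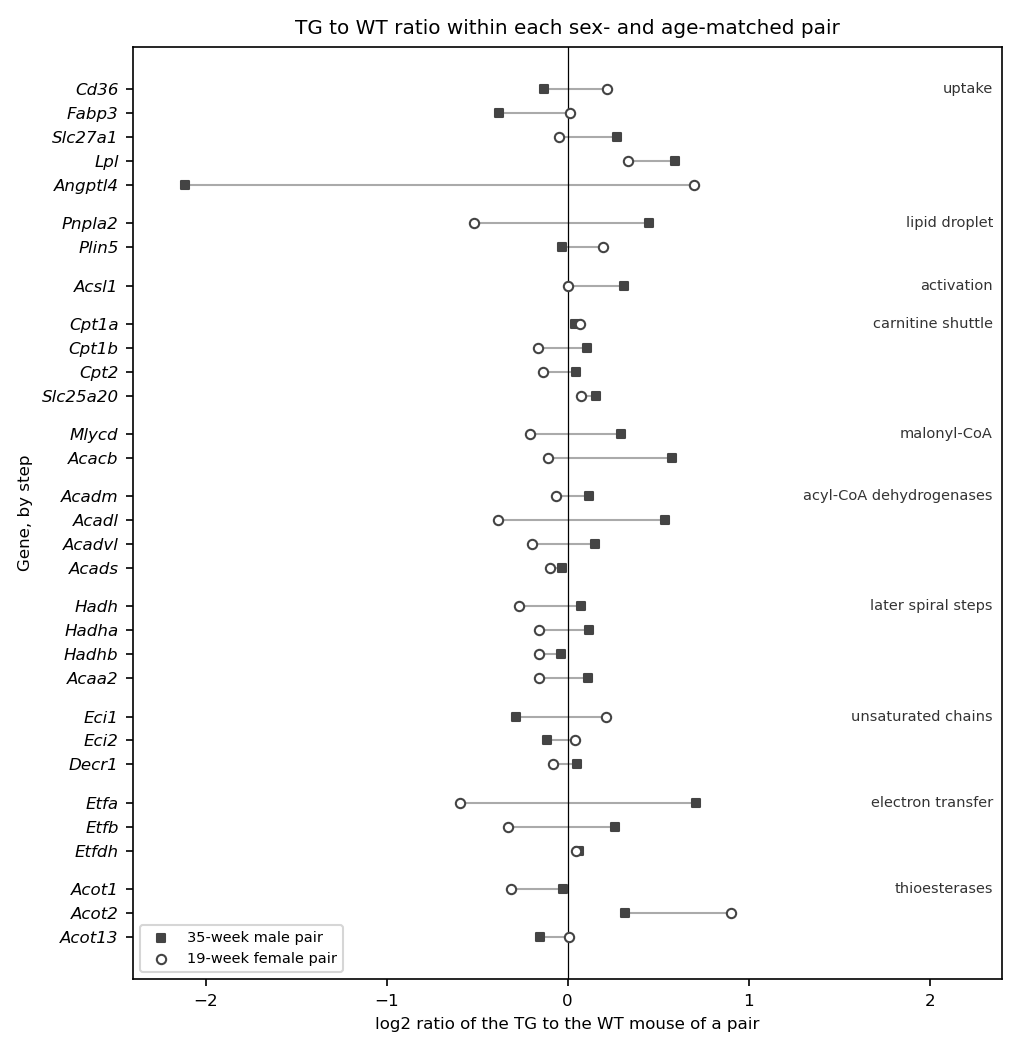
Log2 ratio of the TG to the WT mouse within the 35-week male pair (squares) and the 19-week female pair (circles) for the 31 genes by step. The ratio was above 1 in both pairs for 6 genes and below 1 in both for 3, and Etfa lay at 0.71 for the males and -0.59 for the females.

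The TG to WT ratio was above 1 in both pairs for Lpl, Acsl1, Cpt1a, Slc25a20, Etfdh and Acot2, or 6 of 31 against 16.7% of all genes. It was below 1 in both for Acads, Hadhb and Acot1, or 3 of 31 against 18.6%. For the other members the pairs pointed in opposite directions. The median ratio of the members was 0.11 on the log2 scale for the males and -0.08 for the females.

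By level, Fabp3 and Cd36 led the pathway and Acot1 closed it. Per kilobase of exonic length, Fabp3 averaged 1026 ± 119 CPM per kb (SD, n = 4), Cd36 768 ± 55.9, Lpl 472 ± 121, Acaa2 404 ± 42.7 and Acadvl 341 ± 31.4. Acadl (311 ± 57.8), Etfb (295 ± 39.4), Acadm (268 ± 14.2) and Acot13 (257 ± 11.9) followed, and Hadha took place 10 at 171 ± 10.5 CPM per kb. Within this order, Lpl with Acaa2, and each neighbour from Acaa2 to Acot13, differed by less than the sum of their SDs. At the low end were Cpt1b (13.1 ± 0.809), Cpt1a (7.82 ± 0.870), Angptl4 (1.89 ± 1.54) and Acot1 (0.441 ± 0.0804). The same 10 genes led when the longest annotated transcript was taken as the length, with Lpl then first at 1202 CPM per kb.

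**Figure D3:**
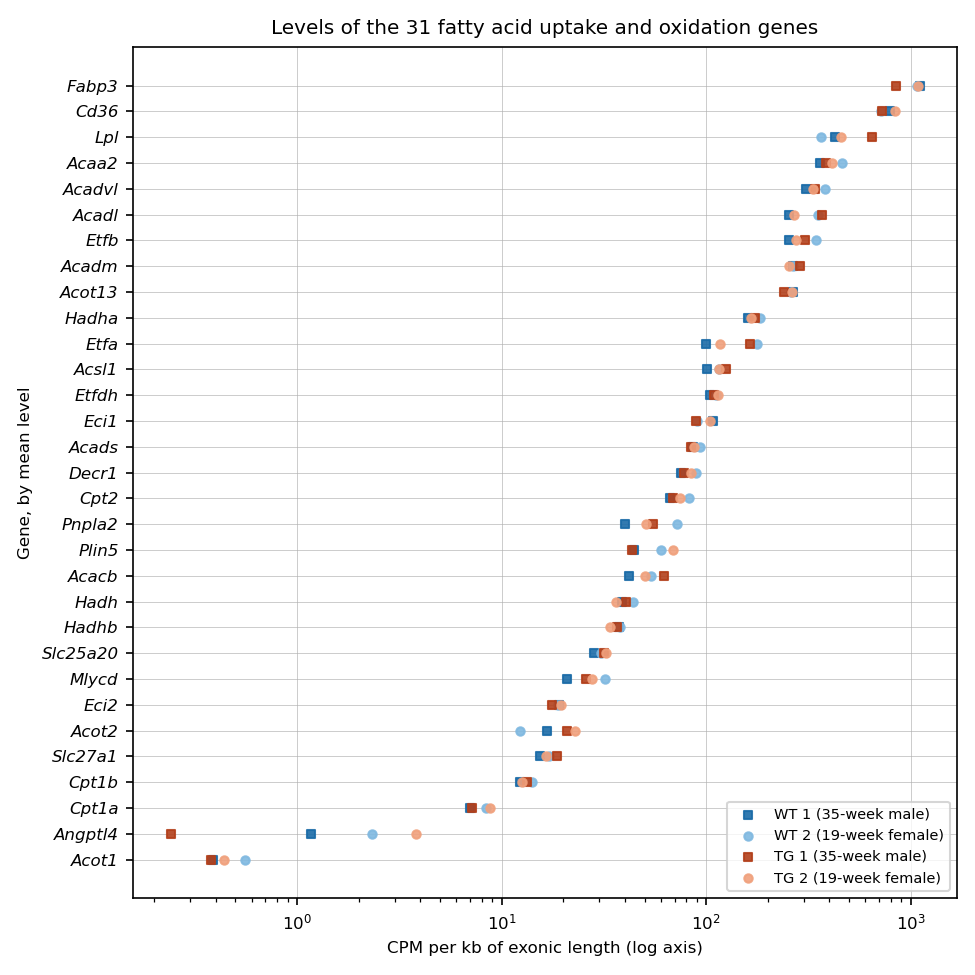
Level of each member in each library as CPM per kilobase of exonic length on a log axis, ordered by the mean; blue marks WT, red TG, squares 35-week males and circles 19-week females. The 4 libraries of a gene lie close together except for Angptl4, where they run from 0.241 in TG 1 to 3.81 in TG 2.

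Among the uptake genes the membrane fatty acid translocase Cd36 stood at 2850 CPM in WT 1, 2577.5 in WT 2, 2605.5 in TG 1 and 2995.5 in TG 2. The cytosolic fatty acid-binding protein of heart, Fabp3, stood at 908 CPM in WT 1, 881 in WT 2, 698 in TG 1 and 890.0 in TG 2. Both genotypes overlapped for Cd36, and for Fabp3 TG 1 was the low library while the other 3 lay close together. The log2 fold change of Fabp3 between TG and WT was -0.17 ± 0.17 (SE) and came to -0.01 without TG 1. Slc27a1, a fatty acid transport protein that also activates its cargo, ranged from 90.05 CPM in WT 1 to 109 CPM in TG 1.

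Lpl, the lipoprotein lipase that frees fatty acids from circulating triglyceride, stood at 4465 CPM in WT 1, 3794 in WT 2, 6734 in TG 1 and 4788 in TG 2. Both TG hearts were above both WT hearts, TG 1 by the wider margin. WT hearts averaged 4129 ± 475 CPM and TG hearts 5761 ± 1376 (SD, n = 2 each). The log2 fold change was 0.48 ± 0.22 (SE) with a 95% interval of -0.08 to 1.04 and an adjusted p of 0.9999 by edgeR, and it was 0.22 without TG 1. Lpl was the second smallest of the members' p-values in this comparison.

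Angptl4, a secreted inhibitor of Lpl and a known PPAR target, had 68 counts in WT 1, 129 in WT 2, 12 in TG 1 and 203 in TG 2. These are 4.13, 8.25, 0.854 and 13.5 CPM. Both males were below both females, and the genotypes overlapped completely, since TG 1 was the lowest and TG 2 the highest library. The log2 difference of males from females was -2.10 ± 0.73 (SE, adjusted p = 0.999 by edgeR), the widest of the 31, and it was -1.39 without TG 1 and -3.66 without WT 1. Its 95% interval for TG against WT, -2.72 to 3.15, was the widest as well.

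Both lipid droplet genes varied more than most members. Plin5, a droplet coat protein of oxidative tissue that tethers droplets to mitochondria, stood at 92.9 CPM in WT 1, 125 in WT 2, 90.8 in TG 1 and 143 in TG 2. Pnpla2, the adipose triglyceride lipase that opens droplet lipolysis, stood at 121 CPM in WT 1, 218 in WT 2, 165 in TG 1 and 153 in TG 2. Plin5 was lower in both males, by a wider margin in TG than in WT, whereas Pnpla2 was highest in WT 2 and lowest in WT 1. The log2 difference of males from females for Plin5 was -0.55 ± 0.13 (SE), with an unadjusted p of 0.010, the smallest among the members, and an adjusted p of 0.999 by edgeR. DESeq2 gave it an adjusted p of 0.28, and over the alternatives the difference lay between -0.64 and -0.44. For Pnpla2 the crossed ratio was 0.49 ± 0.18, and 0.27 both without WT 2 and under the cardiomyocyte marker scaling.

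Acsl1, the main long-chain acyl-CoA synthetase of heart, stood at 1053 CPM in WT 1, 1205 in WT 2, 1306.5 in TG 1 and 1208 in TG 2. The lower TG library exceeded the higher WT library by a few CPM, so the groups barely parted. Its log2 fold change was 0.16 ± 0.15 (SE), and 0.06 without WT 1, 0.26 without WT 2 and 0.05 under the cardiomyocyte marker scaling.

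In the carnitine shuttle, Cpt1a, the carnitine palmitoyltransferase isoform of liver that is also made in heart, stood at 53.3 CPM in WT 1, 63.8 in WT 2, 54.9 in TG 1 and 66.9 in TG 2. Cpt2, which rebuilds acyl-CoA inside the mitochondrion, stood at 159 CPM in WT 1, 196 in WT 2, 164 in TG 1 and 179 in TG 2. Both genes were lower in the males without overlap, by -0.27 ± 0.12 (Cpt1a) and -0.22 ± 0.12 (Cpt2) on the log2 scale (SE). Slc25a20, the carnitine-acylcarnitine carrier of the inner membrane, stood at 137 CPM in WT 1, 149 in WT 2, 153 in TG 1 and 157 in TG 2. Both TG libraries were above both WT libraries, with a log2 fold change of 0.12 ± 0.14, which was 0.06 without WT 1, 0.18 without WT 2 and 0.02 under the cardiomyocyte marker scaling. The muscle isoform Cpt1b ranged from 41.5 to 47.7 CPM, and per kilobase of exonic length it was at 1.44 to 1.85 times the level of Cpt1a. By the longest annotated transcript the means lay closer, at 15.2 (Cpt1b) and 13.8 (Cpt1a) CPM per kb. Of the exonic length of Cpt1b, 81.4% is shared on the same strand with the annotated gene Gm44502, which is not among the genes of the deposited counts. The sources used here do not say whether reads in the shared part were counted to Cpt1b.

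Malonyl-CoA, the inhibitor of carnitine transfer, is made by Acacb and removed by Mlycd. Acacb, the acetyl-CoA carboxylase of the outer mitochondrial membrane, stood at 404 CPM in WT 1, 518 in WT 2, 602 in TG 1 and 481 in TG 2. Mlycd, malonyl-CoA decarboxylase, stood at 62.3 CPM in WT 1, 94.9 in WT 2, 76.5 in TG 1 and 82.1 in TG 2. Both genes were lowest in WT 1. For Acacb the log2 fold change of TG over WT was 0.23 ± 0.20 (SE) and moved between 0.06 and 0.43 as single libraries were left out. For Mlycd the males were lower than the females by -0.35 ± 0.17, and by -0.21 without WT 1.

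The acyl-CoA dehydrogenases take the first step of the spiral at different chain lengths. Acadvl, the very long-chain enzyme, stood at 825 CPM in WT 1, 1028 in WT 2, 918 in TG 1 and 896 in TG 2. Acadl, the long-chain enzyme, stood at 508 CPM in WT 1, 705 in WT 2, 738 in TG 1 and 539 in TG 2. Acadm, the medium-chain enzyme, stood at 1037 CPM in WT 1, 1036 in WT 2, 1124 in TG 1 and 992 in TG 2. Acadl was high in WT 2 and TG 1 and low in WT 1 and TG 2, Acadvl parted the same libraries by a smaller margin, and Acadm was nearly level. The crossed ratio of Acadl was 0.46 ± 0.11 (SE, unadjusted p = 0.0061, adjusted p = 0.11 by edgeR), and 0.23 under the cardiomyocyte marker scaling, against a TG over WT fold change of 0.07 ± 0.25. Acads, the short-chain enzyme, stayed between 191 and 212 CPM. Of the exonic length of Acadvl, 42.9% overlaps Dvl2 on the opposite strand, which had 53 to 84 counts, and the sources used here do not give the strand setting of the counting.

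Hadha and Hadhb encode the subunits of the mitochondrial trifunctional protein, which carries out the later steps for long chains. Hadha stood at 1399 CPM in WT 1, 1605 in WT 2, 1520 in TG 1 and 1439 in TG 2. Hadhb stood at 246 CPM in WT 1, 250 in WT 2, 240 in TG 1 and 224 in TG 2. Hadhb was lower in both TG hearts, with a log2 fold change of -0.10 ± 0.14 (SE), and Hadha overlapped between the genotypes. Per kilobase of exonic length Hadha was at 4.29 to 4.86 times Hadhb. This ratio depends on the length used: by the longest annotated transcript the means were 371 and 54.7 CPM per kb. Acaa2, the medium-chain thiolase that ends the turn, stood at 543 CPM in WT 1, 696 in WT 2, 587 in TG 1 and 624 in TG 2, with both males below both females by -0.22 ± 0.13 on the log2 scale, and by -0.15 without WT 2. Hadh, the short-chain hydroxyacyl-CoA dehydrogenase, ranged from 181 CPM in TG 2 to 217 CPM in WT 2.

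Eci1, Eci2 and Decr1 handle the double bonds of unsaturated chains. The enoyl-CoA isomerase Eci1 stood at 230 CPM in WT 1, 191 in WT 2, 189 in TG 1 and 222 in TG 2, high in the libraries where Acadl was low. Its crossed ratio was -0.25 ± 0.11 (SE, adjusted p = 0.33 by edgeR), and -0.48 under the cardiomyocyte marker scaling (adjusted p = 0.11). The second isomerase, Eci2, stood at 105 CPM in WT 1, 105 in WT 2, 97.2 in TG 1 and 108 in TG 2. Decr1, the dienoyl-CoA reductase, ranged from 291 CPM in WT 1 to 345 CPM in WT 2.

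The electron transfer flavoprotein held the member with the smallest p for the crossed ratio. Its alpha subunit gene Etfa stood at 183 CPM in WT 1, 325 in WT 2, 300 in TG 1 and 215 in TG 2. Its beta subunit gene Etfb stood at 296 CPM in WT 1, 402 in WT 2, 355 in TG 1 and 319 in TG 2. For both subunits WT 2 and TG 1 were above WT 1 and TG 2 without overlap, so that TG exceeded WT among the males and WT exceeded TG among the females. For Etfa the crossed ratio was 0.65 ± 0.13 (SE), with an unadjusted p of 0.0025 and an adjusted p of 0.066 by edgeR, and it was 0.43 under the cardiomyocyte marker scaling and 0.59 without WT 2. Its adjusted p ranged from 0.0032 (DESeq2) to 0.50 (without WT 1) over the alternatives, and the genotype difference was 0.02 ± 0.33. For Etfb the crossed ratio was 0.30 ± 0.12 (adjusted p = 0.31) and 0.07 under the cardiomyocyte marker scaling. Etfdh, the oxidoreductase that hands these electrons to ubiquinone, had no such split and ranged from 786 to 861 CPM. Of the exonic length of Etfb, 53.0% is shared on the same strand with the annotated gene Gm45233, which is not among the genes of the deposited counts. The sources used here do not say whether reads in the shared part were counted to Etfb.

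Thioesterases release free fatty acid from acyl-CoA. The mitochondrial Acot2 stood at 36.8 CPM in WT 1, 26.9 in WT 2, 45.9 in TG 1 and 50.4 in TG 2. Its cytosolic relative Acot1 had 25 counts in WT 1, 34 in WT 2, 21 in TG 1 and 26 in TG 2, or 1.52, 2.18, 1.49 and 1.73 CPM. Both TG hearts were above both WT hearts for Acot2, whereas the genotypes overlapped for Acot1. WT hearts averaged 31.8 ± 7.01 CPM of Acot2 and TG hearts 48.1 ± 3.199 (SD, n = 2 each). Its log2 fold change was 0.60 ± 0.20 (SE) with a 95% interval of 0.08 to 1.11, an unadjusted p of 0.031 and an adjusted p of 0.9999 by edgeR, and it was 0.39 without WT 2. The pair ratios of Acot2 on the log2 scale were 0.32 in the males and 0.90 in the females. Acot13, a mitochondrial thioesterase of another fold, stood at 198 CPM in WT 1, 194 in WT 2, 178 in TG 1 and 195 in TG 2, all within 1.11-fold.

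Several members share sequence with other loci, which bears on how far their counts belong to them. A search of the members' transcripts against the GENCODE vM21 transcripts found copies of at least 90% identity over at least 300 bases for 6 members, and for 5 of these the copy itself had at least 100 counts in all. The pairs below are coding windows of 60 bases in which member and copy differ most, shown because the letters in capitals, where the 2 differ, are the only ones in that window that tell them apart. Positions count from the first base of the coding sequence for genes and of the transcript for pseudogenes.
Hadhb (142 to 201): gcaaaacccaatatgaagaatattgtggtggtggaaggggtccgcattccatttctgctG
Gm13910 (142 to 201): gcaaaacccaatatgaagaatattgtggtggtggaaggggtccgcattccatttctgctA
Fabp3 (275 to 334): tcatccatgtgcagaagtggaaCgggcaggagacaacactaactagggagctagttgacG
Fabp3-ps1 (275 to 334): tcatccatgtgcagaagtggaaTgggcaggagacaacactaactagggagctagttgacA
Etfa (664 to 723): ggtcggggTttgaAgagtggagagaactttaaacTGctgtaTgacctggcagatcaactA
Gm15285 (390 to 449): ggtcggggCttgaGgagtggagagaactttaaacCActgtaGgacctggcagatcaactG
Acot2 (946 to 1005): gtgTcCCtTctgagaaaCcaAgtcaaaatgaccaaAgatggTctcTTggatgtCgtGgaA
Acot1 (823 to 882): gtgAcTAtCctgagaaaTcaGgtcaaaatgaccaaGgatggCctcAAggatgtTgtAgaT

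The coding sequence of Hadhb on chromosome 5 and the processed pseudogene Gm13910 on chromosome 2 were 99.79% identical over 1428 bases, with 3 differing bases in all. Gm13910 was counted at 476 CPM in WT 1, 472 in WT 2, 480 in TG 1 and 447.5 in TG 2, more than Hadhb itself, and it held 65.4% to 66.7% of the counts of the pair in every library. With both counts added, the sum was 722 CPM in WT 1, 721 in WT 2, 721 in TG 1 and 671 in TG 2. Hadha per kilobase was then at 1.46 to 1.68 times it, with the whole sum divided by the exonic length of Hadhb. The level given for Hadhb is therefore uncertain, and its share of the sum hardly varied.

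Fabp3-ps1 on chromosome 10 is 99.25% identical to the 402 coding bases of Fabp3 and held 26.9% to 28.3% of the summed counts. The sum of Fabp3 and Fabp3-ps1 was 1265 CPM in WT 1, 1205 in WT 2, 973 in TG 1 and 1217 in TG 2, with TG 1 again the low library. Gm15285 on chromosome 13, a processed pseudogene of Etfa, was at 9.85 CPM in WT 1, 17.5 in WT 2, 17.6 in TG 1 and 11.4 in TG 2, the same split as Etfa. It made up 5.04% to 5.53% of the counts of the pair. Acot1 and Acot2, neighbours on chromosome 12, were 95.06% identical over 1274 bases of transcript, and Acot1 held 3.15% to 7.49% of their summed counts. The isomerase Eci3, a relative of Eci2, had 0 counts in every library, which allows up to 3 counts, or 0.182 to 0.213 CPM, in counting error alone.

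**Figure D4:**
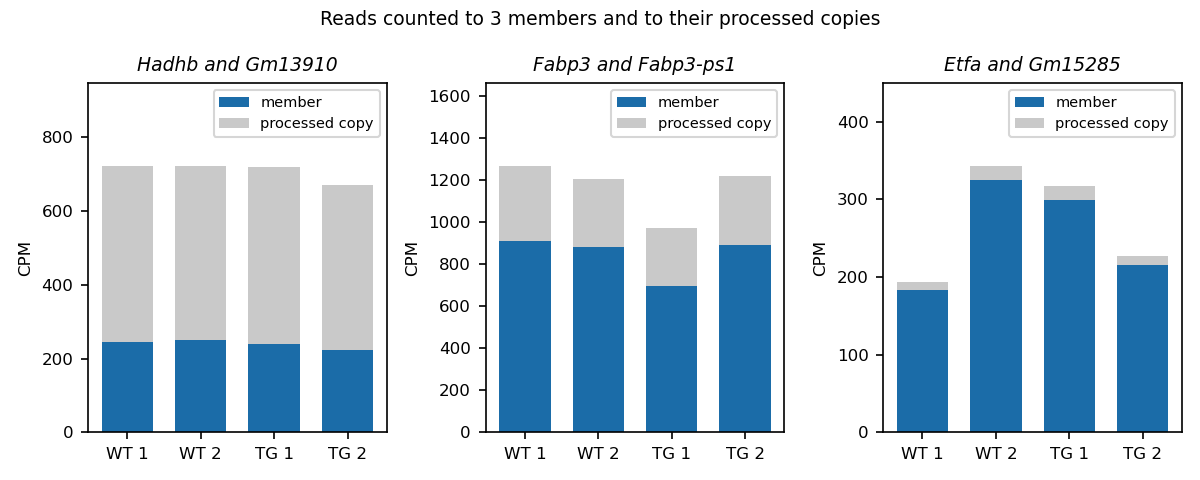
CPM counted to Hadhb, Fabp3 and Etfa (blue) and, stacked on them, to their processed pseudogenes (grey) in each library. The pseudogene share stays near 66% for Hadhb, 27% to 28% for Fabp3 and 5% for Etfa while the Etfa total runs from 193 CPM in WT 1 to 343 CPM in WT 2.

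Promoter windows of 300 bases, from 250 before to 50 after a start site, came from RefSeq on GRCm38.p6 and were matched by symbol for 25 of the 31 members. They were searched on both strands for 7 motifs and set beside all 32851 windows in the table. The nuclear receptor half-site AGGTCA, which the DR1 element and the estrogen-related receptor element contain, was found in 6 members' windows, those of Cd36, Plin5, Cpt1a, Acacb, Acadm and Acadvl (24.0%, against 16.3% of all windows). The DR1 element to which PPAR receptors bind, a direct repeat of AGGTCA spaced by any 1 base, was found in 0 of 25 (0.04% of all), the estrogen-related receptor element TCAAGGTCA in 0 (0.42%) and the E-box CACGTG in 0 (7.15%). A CCAAT box (CCAAT) was found in 13 (52.0%, against 37.4%), a GC box (GGGCGG) in 17 (68.0%, against 35.7%) and a TATA box (TATAAA) in 1, Acacb (4.0%, against 13.6%). These counts are descriptions of letters in the windows.

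The upstream sequence is given for the members of smallest p in the 3 comparisons, Acot2 for genotype, Plin5 for sex and age and Etfa for the difference between pairs, and for the stretch that Hadha and Hadhb share. Each is read 5′ to 3′ on the strand of the named gene and ends just before its start in the annotation, with searched motifs in capitals.
Acot2, chr12:83987611-83987860, plus strand: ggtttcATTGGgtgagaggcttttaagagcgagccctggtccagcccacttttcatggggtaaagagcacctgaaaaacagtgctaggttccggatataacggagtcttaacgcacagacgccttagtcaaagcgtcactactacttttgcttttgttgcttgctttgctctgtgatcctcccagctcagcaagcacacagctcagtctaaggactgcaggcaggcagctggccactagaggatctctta
Plin5, chr17:56117597-56117798, minus strand: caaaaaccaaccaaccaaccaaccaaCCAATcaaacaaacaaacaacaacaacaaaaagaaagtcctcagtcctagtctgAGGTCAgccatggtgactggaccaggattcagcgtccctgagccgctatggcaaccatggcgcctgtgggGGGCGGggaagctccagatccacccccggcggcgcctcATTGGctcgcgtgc
Etfa, chr9:55512244-55512493, minus strand: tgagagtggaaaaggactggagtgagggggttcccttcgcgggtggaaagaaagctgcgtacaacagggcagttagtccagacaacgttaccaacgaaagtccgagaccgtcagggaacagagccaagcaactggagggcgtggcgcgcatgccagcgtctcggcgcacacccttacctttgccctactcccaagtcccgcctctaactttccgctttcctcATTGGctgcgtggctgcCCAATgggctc
Hadhb, chr5:30155163-30155247, plus strand: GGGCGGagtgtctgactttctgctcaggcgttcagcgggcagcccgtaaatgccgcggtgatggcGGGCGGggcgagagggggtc

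The Etfa window holds a pair of CCAAT boxes close to its start, on opposite strands, and that of Acot2 holds 1 CCAAT box at its far end. The Plin5 window holds the half-site between a CCAAT box and a GC box, with a further CCAAT box nearer the start. Hadha and Hadhb, which are read in opposite directions, have starts in the GENCODE annotation separated by 85 bases. That whole stretch, with 2 GC boxes and a GC content of 69.4%, is the Hadhb sequence above. The RefSeq window searched for Hadha held 1 GC box, at -188 from its start, so the 2 annotations place that start differently. Between TG and WT these genes had log2 fold changes of -0.02 ± 0.15 (Hadha) and -0.10 ± 0.14 (Hadhb).

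Other genes of lipid metabolism gave no call between the genotypes either. Of 7 lists drawn up by step, none held a gene past the threshold for TG against WT by edgeR, and none held one at an unadjusted p below 0.05. Among other uptake and activation genes 4 of 17 tested were higher in TG, with the smallest p for Slc27a3, a transport protein (-1.09 ± 0.47, SE), and Acss1, a mitochondrial acetyl-CoA synthetase (0.41 ± 0.25). Slc27a3 had only 18 counts in WT 1, 22 in WT 2, 7 in TG 1 and 10 in TG 2. Among carnitine supply genes 1 of 6 was higher, Slc25a29, a mitochondrial carrier of basic amino acids (0.20 ± 0.17), beside Cpt1c, the brain isoform (-0.39 ± 0.41, at 26 to 48 counts). Other mitochondrial oxidation and ketone genes were higher for 10 of 20, led by Acad9, a dehydrogenase that also assembles complex I (0.28 ± 0.19), and Mcat of mitochondrial fatty acid synthesis (-0.18 ± 0.15). Of all genes tested, 47.5% were higher, and no list was tested as a whole.

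Peroxisomal oxidation genes were higher in TG for 7 of 19, with the smallest p for the thiolase Acaa1a (-0.25 ± 0.17, SE) and the lyase Hacl1 (-0.23 ± 0.17). Triglyceride and droplet genes were higher for 7 of 17, with G0s2, an inhibitor of Pnpla2 (0.38 ± 0.22), and the droplet protein Plin3 (-0.25 ± 0.18). Other thioesterase and malonyl-CoA genes were higher for 7 of 11, with Acot5 (0.54 ± 0.44, at 16 to 27 counts) and the citrate lyase Acly (-0.10 ± 0.13). Lipid-responsive targets and regulators were higher for 15 of 19, with a median of 0.04, and the smallest p belonged to the receptors Ppard (0.35 ± 0.27) and Pparg (0.26 ± 0.24).

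Between males and females, the lipid-responsive genes Ucp3 and Ppargc1a were lower in both males, like Angptl4 and Plin5, though neither passed the test. They and Pdk4 were named after their values were seen. The uncoupling protein gene Ucp3 stood at 10.6 CPM in WT 1, 16.2 in WT 2, 4.84 in TG 1 and 27.6 in TG 2. The coactivator Ppargc1a stood at 128 CPM in WT 1, 298 in WT 2, 167 in TG 1 and 276 in TG 2. Each was lower in both males than in both females, by -1.49 ± 0.46 (Ucp3) and -0.96 ± 0.18 (Ppargc1a) on the log2 scale (SE). Pdk4, the kinase that shuts off pyruvate oxidation, did not part the pairs, at 300.3 CPM in WT 1, 264 in WT 2, 137 in TG 1 and 406 in TG 2. TG 1 was the lowest library for Angptl4, Ucp3 and Pdk4. In the lipid-responsive list 7 of 19 genes were higher in males, with a median of -0.19, and in the droplet list 4 of 17, with a median of -0.20. Adipocyte markers were higher in males for 1 of 6, with a median of -0.60, and erythroid markers for 5 of 5, with a median of 1.56, and their part in the differences between males and females was not tested.

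**Figure D5:**
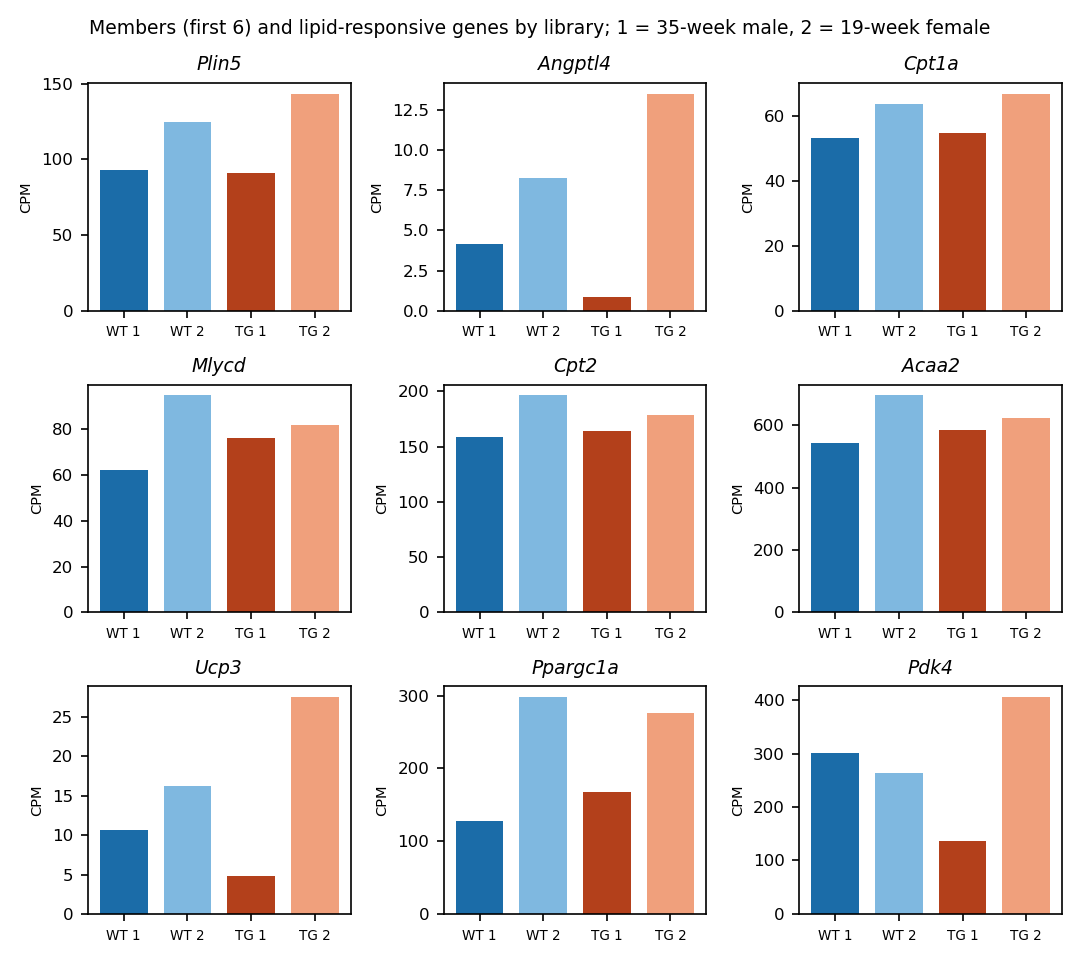
CPM in each library for the 6 members of smallest p between males and females (Plin5, Angptl4, Cpt1a, Mlycd, Cpt2, Acaa2) and for Ucp3, Ppargc1a and Pdk4; bars start at 0. The 19-week females (WT 2, TG 2) are above the 35-week males for all but Pdk4, with Plin5 at 125 and 143 CPM against 92.9 and 90.8.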

How the data were processed

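Raw gene counts, as deposited by the authors, were used for every test. The authors' normalized signal was checked to be these counts scaled by a single factor in each library and was not used further. A stranded total RNA kit (TruSeq) and a HiSeq2000 were used, per the labels' protocols. The submitters' processing notes name STAR 2.3.0, HTSeq 0.6.1, DESeq, CASAVA 1.8.2, FastQC 0.10.0 and build mm10; they do not give the annotation release or how strand was handled.

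The analysis used edgeR 4.0.16 under R 4.3.3 (filterByExpr with a minimum count of 10, TMM scaling, quasi-likelihood test, Benjamini-Hochberg adjustment over all 14189 tested genes, threshold 0.05). TG was compared with WT, 35-week males with 19-week females, and WT 2 with TG 1 against WT 1 with TG 2, each as the only term. The log2 ratio of this last comparison (the crossed ratio) is given as fitted; the difference of the pairs' ratios is 2 times it. DESeq2 1.42.0, limma-voom (limma 3.58.1), other scalings, no filter, a replicate block and leaving out each library were alternatives. Pair ratios used a prior count of 2. Exonic lengths, overlaps and transcripts came from GENCODE vM21, copies from BLAST+ 2.17.0 and window alignments from Biopython 1.88. The scripts were tested on simulated data. Values in every library were given for the 10 highest members per length, the 6 of smallest p in each comparison and those with near-identical copies; per list, called genes or else the 2 of smallest p for TG against WT were named. A result for 1 further gene is not reported here. Members, lists and the crossed comparison were chosen with earlier results of these data known.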

Additional observations from a re-analysis of the deposited data

Results flagged for a closer look

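Ucp2, a mitochondrial carrier of the uncoupling protein family on the list of lipid-responsive genes, had a TG to WT ratio that differed between the pairs by edgeR's test of that difference. It stood at 46.1 CPM in WT 1, 25.01 in WT 2, 19.4 in TG 1 and 54.4 in TG 2, so TG was lower in the male pair and higher in the female pair. The crossed ratio, log2 of WT 2 with TG 1 relative to WT 1 with TG 2, was -1.18 ± 0.17 (SE, edgeR adjusted p = 0.030). With 1 mouse of each genotype per pair, its test cannot separate such a difference from variation between animals. The summed leukocyte markers were likewise higher in WT 1 (1177 CPM) and TG 2 (974.2) than in WT 2 (239.1) and TG 1 (238.9), and their part in this result was not tested.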

How the results depend on the processing

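No member was called under any alternative for TG against WT or for males against females. For TG against WT, genes called of all tested numbered 0 with edgeR, 3 with DESeq2 and 0 to 6 as single libraries were left out (6 without WT 1), while the members' median log2 fold change lay between -0.12 (without WT 1) and 0.14 (without WT 2), where 10 and 23 members were higher. For males against females, 4 genes were called, 34 with DESeq2, 7 without the filter, 0 with genotype as a second term and 0 to 7 as single libraries were left out (0 without WT 1, WT 2 or TG 1). For the difference between the pairs, 386 genes were called, 703 with DESeq2, 717 with cardiomyocyte marker library sizes, 908 without the filter, and 40 to 347 as single libraries were left out (40 without WT 1, 109 without TG 2); members called were 0, but 2 with DESeq2 (Etfa, Acadl) and 1 without the filter (Etfa, adjusted p = 0.014), and their median went from 0.09 to -0.13 with the cardiomyocyte marker scaling. Under that scaling the median of all genes also fell, from 0.005 to -0.22. The members' median was above it by 0.09 in the main setting and by 0.10 under that scaling. The causes of the differences between settings were not tested. With the replicate number (sex with age) as a block, TG against WT gave 0 calls by edgeR and 0 by DESeq2. At an unadjusted p below 0.05 there were 61 genes by edgeR and 47 by DESeq2. The same-numbered libraries tended to deviate in opposite directions (r = -0.45 across 14189 genes, which are not independent). The main test of TG against WT used no block, whereas the pair ratios and the crossed ratio used the labelled pairs. With the crossed pairing as a block, chosen after seeing the data, 0 genes were called. A single library left out leaves 1 mouse in its group, assumed to vary like the rest. Per length, 19 members' levels moved by more than 1 SD with the longest transcript. With 12 to 203 counts, Angptl4 was the member most limited by depth apart from Acot1 (21 to 34 counts).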

Other observations

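Among genes of acyl-CoA metabolism outside the 31, the crossed ratio was above 0 for 17 of 20 other mitochondrial oxidation and ketone genes. It was above 0 for 14 of 19 peroxisomal oxidation genes and 5 of 6 carnitine supply genes. The same held for 6 of 11 other thioesterase and malonyl-CoA genes and 8 of 17 other uptake and activation genes. Of all genes tested, 50.9% were above 0, and none of the genes on these lists passed the threshold. These lists were not counted under the cardiomyocyte marker scaling, which put the median of all genes at -0.22. The genes named next were picked after their values were seen and go in both directions. Pcca, a subunit of propionyl-CoA carboxylase, stood at 47.3 CPM in WT 1, 84.8 in WT 2, 90.9 in TG 1 and 58.6 in TG 2 (adjusted p = 0.058 by edgeR for the difference between the pairs). Ivd, the isovaleryl-CoA dehydrogenase that also feeds electrons to the flavoprotein, stood at 291 CPM in WT 1, 420 in WT 2, 421 in TG 1 and 310 in TG 2 (adjusted p = 0.091 by edgeR). Fasn, the fatty acid synthase, stood at 33.8 CPM in WT 1, 72.0 in WT 2, 58.5 in TG 1 and 48.1 in TG 2 (adjusted p = 0.18 by edgeR). The acyl-CoA synthetase genes Acsl5 (-0.48, adjusted p = 0.16 by edgeR) and Acsl6 (-0.87, adjusted p = 0.18) had crossed ratios below 0.

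In the list of triglyceride and droplet genes outside the 31, 4 of 17 were higher in the males, and none passed the test; those named here were picked after the fact. Lipe, the hormone-sensitive lipase, stood at 23.3 CPM in WT 1, 34.7 in WT 2, 23.0 in TG 1 and 33.5 in TG 2. Mgll, the monoglyceride lipase, stood at 176 CPM in WT 1, 270.0 in WT 2, 184 in TG 1 and 237.5 in TG 2. Both were lower in the 35-week males than in the 19-week females, by -0.56 ± 0.11 (Lipe) and -0.50 ± 0.13 (Mgll) on the log2 scale (SE), whereas Abhd5, the coactivator of Pnpla2, had a difference of 0.05. Lipe is also among the adipocyte markers, of which 1 of 6 was higher in the males, and their part in its value was not tested.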
